A study of Rattus norvegicus with 24 samples.

Results

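The miR-26 family of the rat, rno-miR-26a and rno-miR-26b (miR-26a and miR-26b below), was followed in peripheral blood mononuclear cells (PBMC) of healthy and arthritic animals. Both members were taken from the array by their exact names, so that the family makes up 2 of the 677 miRNAs measured. RNA of female Wistar rats was hybridised to 24 one-colour Agilent rat miRNA arrays, 2 for each of 12 groups. Arthritis was raised by immunisation with bovine type II collagen in Freund's adjuvant, a model of rheumatoid arthritis. NORA stands for healthy animals and RA for arthritic animals, both sampled before therapy (T0). Arthritic animals in the arms AP, MTX, PLA and ANE, and NORA again, were sampled 1 hour and 34 days after therapy. AP (mechanical stimulation in the study) is a short needle inserted through the skin and rotated. MTX is methotrexate injected into the peritoneum and PLA is the saline injection given as its placebo. ANE is a control for anaesthesia, in which isoflurane replaced ether at blood sampling and no other therapy was given. The whole blood of an animal was drawn at sampling, so the times compare different animals. Nothing in the labels says whether a sample came from 1 animal or from several, and p-values measure the spread between these samples.

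A miRNA guides the silencing complex to messenger RNAs that pair with its seed, bases 2 to 8 counted from the 5′ end, and such messages are then degraded or poorly translated. Members of one family share the seed and are predicted to share many targets. miR-26 is widely expressed, blood cells included. It is known as one of the miRNAs that the transcription factor Myc represses, and as a repressor of Ezh2, the methyltransferase that places a silencing mark on histone H3. Its genes lie in introns of genes for small phosphatases that act on RNA polymerase II.

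The mature sequences are shown because the members carry the same seed and differ elsewhere. They are given 5′ to 3′ with the seed in capitals, from RefSeq (assembly GRCr8).
rno-miR-26a-5p: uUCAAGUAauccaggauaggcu
rno-miR-26b-5p: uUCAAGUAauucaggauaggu
Over the 21 positions that both have, 19 are identical, and the substitutions from miR-26a to miR-26b are C11U and C21U, counted from the 5′ end of miR-26a. Of 693 rat mature miRNAs in the RefSeq table, 2 carry the seed UCAAGUA, and these are the members themselves. miR-26a lies at chr8:127633063-127633084 on the plus strand of GRCr8, within the span of Ctdspl. miR-26b lies at chr9:83425723-83425743 on the plus strand, within the span of Ctdsp1. Coordinates of the assembly used for the array were not used here.

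The opposite arm of each hairpin is called miR-26a* and miR-26b* on the array. Neither was detected on any of the 24 arrays. The arms are shown because they differ more than the mature strands do, with 14 of 21 positions identical.
rno-miR-26a-3p: ccuauucuugguuacuugcac
rno-miR-26b-3p: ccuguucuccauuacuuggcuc
The family on these arrays is therefore described by its 5p strands, the forms the array names miR-26a and miR-26b.

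Both members were detected on 24 of 24 arrays, and both passed the filter that kept the 210 miRNAs detected on at least 3 arrays for testing. Total signal in arbitrary units ran from 5084 to 28611 for miR-26a and from 2506 to 9076 for miR-26b. miR-26a took 3.22% to 5.50% of the summed signal of all detected miRNAs of an array (median 4.11%), and miR-26b took 1.58% to 2.07% (median 1.80%). The probes of different miRNAs do not share a scale, so these shares do not order the members by abundance. Each member was read by 2 probes of 10 spots each, and the probes of one miRNA moved together over the 24 arrays, with Pearson's r of 0.95 for miR-26a and 0.94 for miR-26b. Probe sequences were not used here, and how far each member's probes bind the other member was not tested.

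Arrays held between 145 and 207 detected miRNAs. Their summed signal ran from 137544 to 519917, with the highest in replicate 1 of AP at 34 days and the next in replicate 1 of AP at 1 hour (371061). No spot was saturated. The arrays lie on 3 slides of 8, and each group lies on 1 slide, so 10 of the 18 comparisons were made within 1 slide and in the other 8 slide and group cannot be told apart. Markers of the blood cells the preparation should hold, miR-150, miR-342-3p and miR-181a of lymphocytes and miR-223 and miR-142-3p of myeloid cells, were detected in every group. The red cell marker miR-451 was also bright. In RNA from mixed cells, a change in the share of a cell type and a change of RNA per cell cannot be told apart.

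All levels below are log2 of the total signal after each array was scaled to the same 75th percentile. The level of miR-26a was highest in AP at 34 days, at 13.67 in replicate 1 and 13.27 in replicate 2. It was lowest in RA before therapy, at 12.85 and 12.87. These groups, the extremes of the order, did not overlap, as was so for 68.6% of all miRNAs tested. ANE at 1 hour came second, at 13.32 and 13.22, followed by NORA at 34 days, at 13.25 and 13.14. The other 8 groups had means between 12.95 and 13.13. Replicates lay up to 0.42 apart, the most in PLA at 1 hour (12.87 and 13.29), which reaches past both ends of that band. Of the 11 pairs of neighbours in the order of group means, 9 had overlapping replicates. The neighbours that did not overlap were NORA at 34 days over NORA at 1 hour and PLA at 34 days over RA before therapy.

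The level of miR-26b moved less. Its group means ran over 0.28, against 0.61 for miR-26a. The highest mean was that of PLA at 34 days, at 11.97 and 11.95 on its arrays. The lowest was that of AP at 1 hour, where the replicates, at 11.51 and 11.86, lay farther apart (0.35) than in any other group. Again 9 of 11 neighbours overlapped. AP at 34 days, the top group of miR-26a, ranked 5th for miR-26b, at 12.01 and 11.83. RA before therapy, the lowest group of miR-26a, was at 11.86 and 11.77 and ranked 9th.

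**Figure D1:**
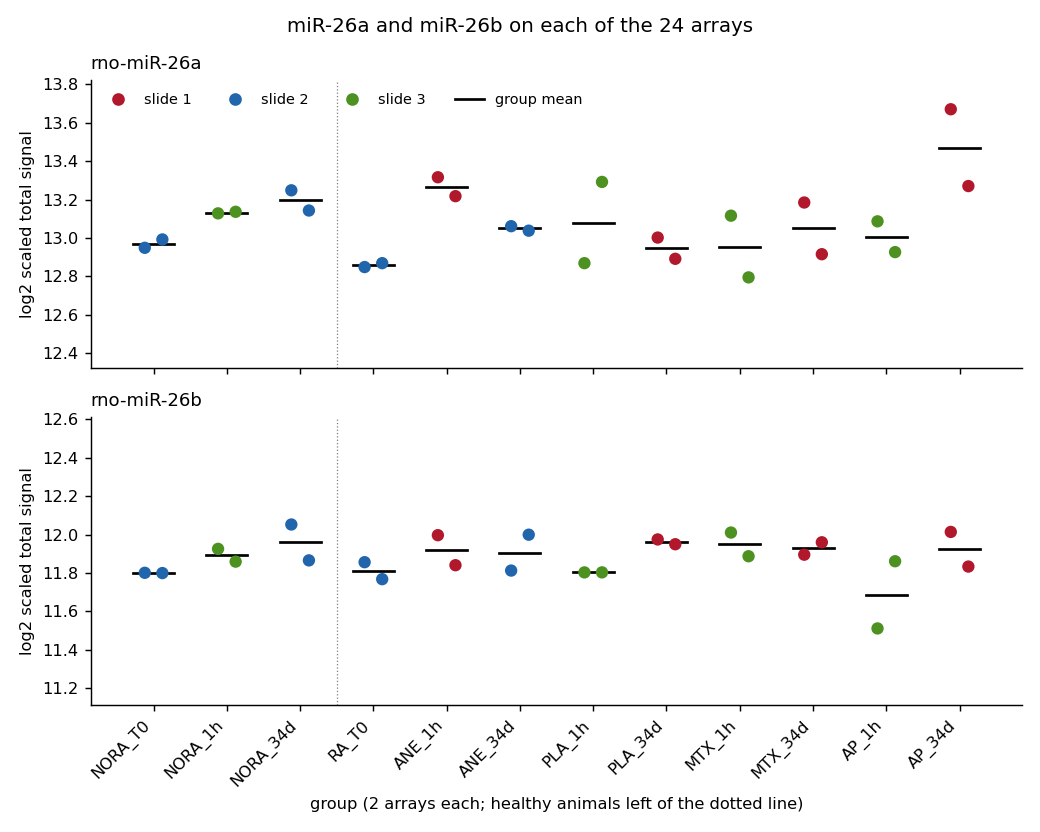
Level of miR-26a (top) and miR-26b (bottom) on each of the 24 arrays, as log2 scaled total signal on axes of equal height. Points are arrays coloured by slide and bars are means of the 2 arrays of a group. miR-26a stands highest in AP at 34 days (13.67 and 13.27) and lowest in RA_T0 (12.85 and 12.87), whereas the 12 group means of miR-26b lie within 0.28.

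For neither member did the variation between the 12 groups pass the test when all groups were taken at once. The moderated F of limma was 1.92 for miR-26a (adjusted p = 0.392) and 0.788 for miR-26b (adjusted p = 0.742). By that test 5 of 210 miRNAs (2.38%) were called, a call being an adjusted p under 0.05, and 31 had an unadjusted p under 0.05. The SD of the group means was 0.17 for miR-26a, against a pooled SD between replicates of 0.15. For miR-26b these were 0.08 and 0.11. The first SD is of means of 2 arrays and the second of single arrays, which vary more, so the values are not like for like. Both members were among the steadier miRNAs between replicates. Their residual SD, after limma had moderated it towards a value common to all miRNAs, was 0.17 and 0.13. These were the 25th and the 9th lowest of 210, where the median was 0.34.

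The only call for the family was in the comparison of AP at 34 days with RA before therapy. There miR-26a rose by 0.61 (SE 0.17, 95% confidence interval 0.25 to 0.98, adjusted p = 0.0383), a fold of 1.53 (1.19 to 1.97). Both AP arrays lay above both RA arrays, as given above. miR-26b differed by 0.11 (SE 0.13, interval -0.18 to 0.40, adjusted p = 0.543), and its replicates overlapped. In this comparison 40 of 210 miRNAs were called (19.0%), 33 of them higher (15.7%), and 68.6% of miRNAs did not overlap between the groups. The call of miR-26a therefore stands among many. Of the 33 that rose, 31 were detected on all 4 arrays, and by size miR-26a was 29th of these, whose differences ran from 0.45 to 2.08 with a median of 0.94. The median over all 210 miRNAs was 0.16. The comparison crosses slides.

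The call rested on several choices. With replicate 1 of AP at 34 days left out, the brightest array, the difference fell to 0.41 and the adjusted p was 0.464. With either RA array left out the adjusted p was 0.131 or 0.115. The adjusted p also rose just over 0.05 (up to 0.0513) without any one of 4 arrays outside the comparison, both of NORA before therapy and both of NORA at 34 days. The call was kept in 17 of the 24 fits that leave out 1 array. A scaling over all miRNAs of an array gave 0.41 (adjusted p = 0.384), quantile normalization 0.64 (0.0948), and a fit of only the arrays compared an adjusted p of 0.174. With no scaling the difference was 1.80 (adjusted p = 0.0101), but so was the median over all miRNAs raised, to 1.32. The difference of miR-26a was above 0 under every setting tried. Many settings could not change it, however. The filters, the floor, the smaller fit, the replicate block and a left-out array outside the comparison all leave it at 0.61. The probes of miR-26a gave 0.71 and 0.56, and those of miR-26b 0.12 and 0.10.

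AP at 34 days shares its slide with PLA and MTX at the same time, whereas ANE and NORA at 34 days lie on another. miR-26a was at 13.00 and 12.89 in PLA at 34 days, below both AP arrays, and differed by 0.52 (SE 0.17, interval 0.16 to 0.89, unadjusted p = 0.00835, adjusted p = 0.0622). No miRNA was called here, while 40.0% had an unadjusted p under 0.05 and 71.0% did not overlap. In MTX at 34 days it was at 13.18 and 12.92, and the difference was 0.42 (interval 0.06 to 0.79, unadjusted p = 0.0272, adjusted p = 0.259). Again no miRNA was called, and 17.6% had an unadjusted p under 0.05. miR-26b differed by -0.04 from PLA (interval -0.33 to 0.25) and by -0.0039 from MTX (interval -0.29 to 0.29). With normexp background correction, a filter on miRNAs detected on all arrays or no filter, the difference of miR-26a from PLA was called, with adjusted p of 0.0141, 0.0410 and 0.0118. With normexp that difference was 0.64, but the median over all 210 miRNAs was itself shifted, to -0.77. With no filter, however, 412 of 677 miRNAs were called here, although 432 were detected on no array. That call therefore does not set miR-26a apart. How many miRNAs were called with the other settings is not given here.

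**Figure D2:**
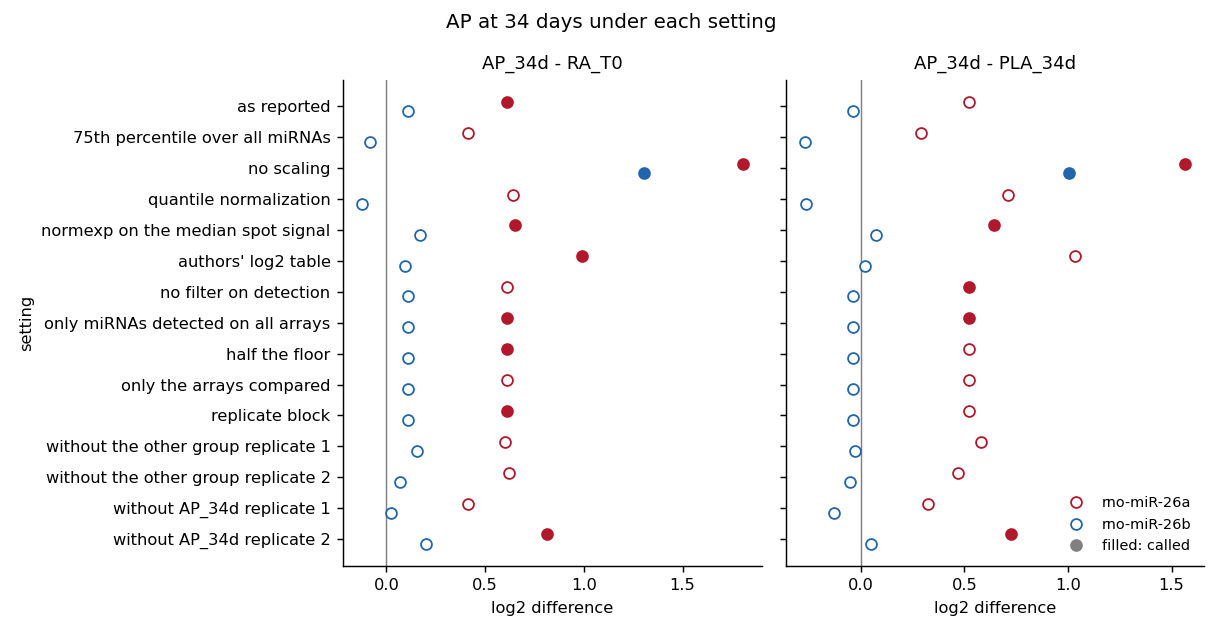
Difference of miR-26a (red) and miR-26b (blue) on the log2 scale between AP at 34 days and RA before therapy (left) or PLA at 34 days (right), one line for each setting. Filled points had an adjusted p under 0.05, and "the other group" is the group named second above each panel. miR-26a stays above 0 in every setting, though filters, the floor, the smaller fit and the replicate block cannot change the difference itself. miR-26a is lowest without replicate 1 of AP at 34 days on the left (0.41) and with the 75th percentile over all miRNAs on the right (0.29). miR-26b lies on both sides of 0, from -0.12 to 1.30 on the left and from -0.27 to 1.00 on the right, both highest without scaling.

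Other changes of the arthritic arms were smaller. Each was set against the same pair of RA arrays, so a low value there raises all of them together. miR-26a lay above RA in 8 of 8 such comparisons and miR-26b in 6 of 8. Of all 210 miRNAs, between 102 (AP at 1 hour) and 139 (PLA at 1 hour) lay above RA in each. Only ANE at 34 days shares the slide of RA, so in the others slide and arm cannot be told apart. ANE at 1 hour lies on the slide of AP at 34 days, and the other arms at 1 hour lie on another. ANE at 1 hour differed most after AP at 34 days, with 0.41 for miR-26a (SE 0.17, interval 0.04 to 0.77, unadjusted p = 0.0311, as 18.1% of miRNAs had under 0.05, adjusted p = 0.263) and 0.11 for miR-26b (adjusted p = 0.649). In that comparison 1 of 210 miRNAs was called (0.476%), and it was the liver marker miR-122, detected on both ANE arrays and on neither RA array, so no size is given. In MTX and PLA at 1 hour 1.43% and 0.952% of miRNAs were called, and in AP at 1 hour and in MTX, ANE and PLA at 34 days 0%. The differences of these 6 arms from RA ran from 0.09 (PLA at 34 days) to 0.22 (PLA at 1 hour) for miR-26a, and from -0.13 (AP at 1 hour) to 0.15 (PLA at 34 days) for miR-26b.

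Arthritis itself made no detectable difference in the family before therapy. miR-26a was at 12.95 and 12.99 in healthy animals, against 12.85 and 12.87 in arthritic animals, a difference of -0.11 (SE 0.17, interval -0.48 to 0.25, adjusted p = 0.952). miR-26b differed by 0.01 (SE 0.13, interval -0.28 to 0.30, adjusted p = 0.980). These groups share a slide, and 2 of 210 miRNAs (0.952%) were called. The intervals leave room for a fall of miR-26a to 0.718 of the healthy level or a rise to 1.19 times it.

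Among healthy animals both members were higher at 34 days than before therapy, on the same slide, by values within the error. miR-26a differed by 0.22 (interval -0.14 to 0.59, adjusted p = 0.790) and miR-26b by 0.16 (interval -0.13 to 0.45, adjusted p = 0.811), where 0.952% of miRNAs were called. At 1 hour miR-26a differed by 0.16 and miR-26b by 0.09 from the healthy animals before therapy, across slides, where 2.38% were called. Arthritic animals that had received no therapy but another anaesthetic lay below healthy animals at 34 days by values within the error, with -0.15 for miR-26a and -0.053 for miR-26b (0% called).

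At 1 hour no difference of AP or MTX from PLA was called in either member. miR-26a differed by -0.07 in AP and -0.12 in MTX, with adjusted p of 0.901 and 0.884. miR-26b differed by -0.12 and 0.15, with adjusted p of 0.834 and 0.884. In these comparisons 2 and 0 of 210 miRNAs were called (0.952% and 0%).

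In the 17 comparisons other than that of AP at 34 days with RA, limma called neither member, while between 0 and 5 of 210 miRNAs were called in each (at most 2.38%). An unadjusted p under 0.05 was found in 3 of the 17 for miR-26a and in 0 for miR-26b. Each interval reaches 0.37 to either side of its difference for miR-26a and 0.29 for miR-26b, and smaller changes could not be resolved with 2 arrays a group. The intervals are not adjusted for the number of miRNAs, so larger changes could also go uncalled. For miR-26a this held for differences of up to 0.52 (AP against PLA at 34 days). The changes from T0 can also be set against each other in 20 pairs of arms, 10 at each time. In 12 of these both arms are arthritic and the RA arrays cancel, so the pair is a direct comparison of the arms, and 5 of the 12 are among the 18 comparisons. None of the 20 was called for either member. The lowest adjusted p among them was 0.0622 for miR-26a, which repeats AP against PLA at 34 days, and 0.393 for miR-26b, AP against MTX at 1 hour. AP against ANE at 34 days, across slides, differed by 0.42 for miR-26a (adjusted p = 0.124). In the 8 pairs with NORA, whose changes start from their own T0, neither member had an unadjusted p under 0.05. For pairs outside the 18 comparisons the share of all 210 miRNAs is not given here. How the members stand among the others in those pairs is therefore not shown.

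**Figure D3:**
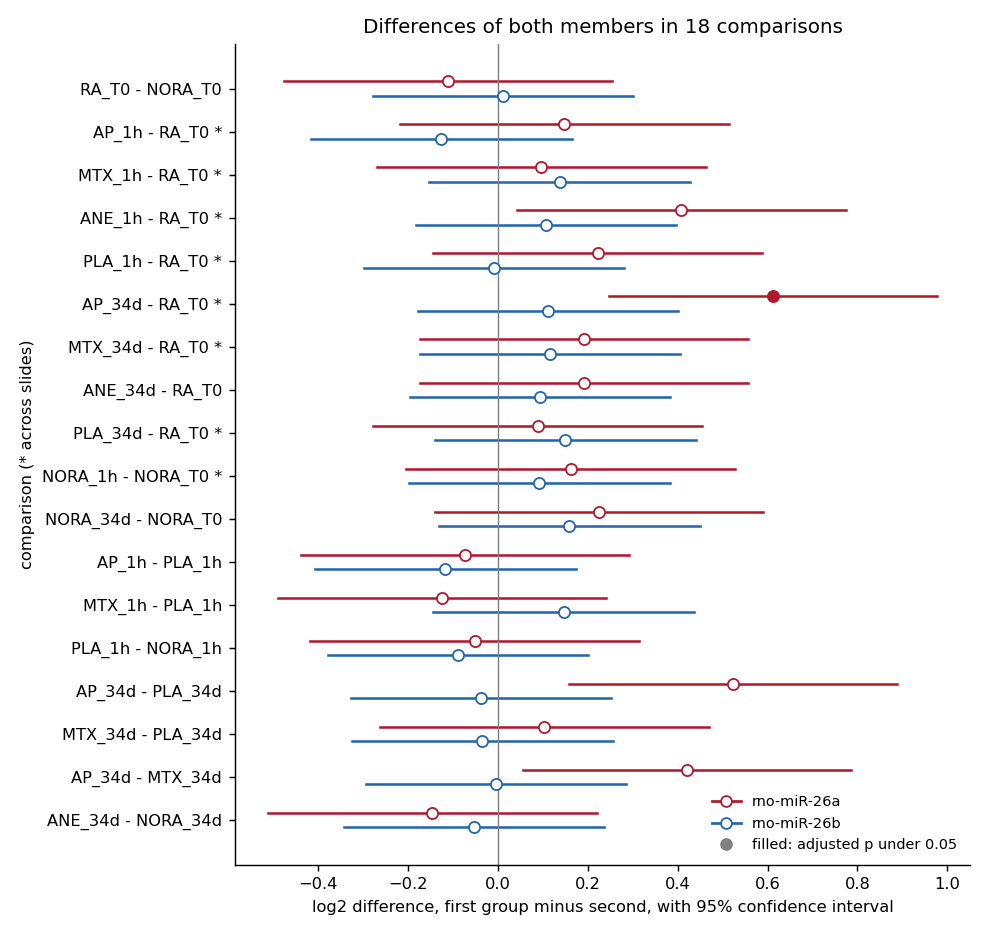
Log2 difference of miR-26a (red) and miR-26b (blue) in the 18 comparisons, first group minus second, with 95% confidence intervals from limma. The filled point (AP_34d - RA_T0, 0.61) is the only one with an adjusted p under 0.05, and an asterisk marks comparisons across slides.

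The log2 level of miR-26a minus that of miR-26b on the same array does not depend on the scaling factor, and only its change between arrays is read here. It was highest in AP at 34 days, at 1.66 and 1.44. It was lowest in PLA at 34 days, at 1.03 and 0.94, and these groups did not overlap. RA before therapy had 0.99 and 1.10. The widest split between replicates was in AP at 1 hour, at 1.58 and 1.07, followed by PLA at 1 hour, at 1.07 and 1.49. The group means ran over 0.56, with an SD of 0.16. The pooled SD between replicates was 0.17, but it is that of single arrays, which vary more than means of 2. Over the 24 arrays the scaled levels of miR-26a and miR-26b had a Pearson's r of 0.26 and a Spearman's rho of 0.30.

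The difference between the members rose with the summed signal of the array. Of 3 relations computed over the 24 arrays, this one had r = 0.78 (permutation p = 4e-05, adjusted p = 0.00012) and rho = 0.70 (permutation p = 0.00018, adjusted p = 0.00054). All permutations in this paragraph shuffled arrays freely, although the arrays form 12 groups of 2. Their p-values leave that structure out and may be too low. The summed signal also includes the members themselves. Without replicate 1 of AP at 34 days and of AP at 1 hour, the arrays farthest from the median signal, r was 0.61. Within slides it was 0.90, 0.46 and 0.79 (exact permutation p = 0.00253, 0.246 and 0.0167, n = 8 each). In 11 of 12 groups the replicate with the higher summed signal also had the higher difference. The scaled level of miR-26a rose with summed signal as well, with r = 0.73 (permutation p = 0.00024, adjusted p = 0.00036) and rho = 0.65 (permutation p = 0.00082, adjusted p = 0.00123), and without those 2 arrays r was 0.63. Within slides that r was 0.88, 0.63 and 0.34 (exact permutation p = 0.0154, 0.0978 and 0.416, n = 8 each). For the scaled level of miR-26b no relation was detected, with r = -0.11 (permutation p = 0.580, adjusted p = 0.580), rho = 0.07 (permutation p = 0.732), and r within slides of -0.06, 0.38 and -0.85 (exact permutation p = 0.867, 0.340 and 0.0566, n = 8 each). AP at 34 days held the array of the highest summed signal (519917) and another of 305171, against 167322 and 163860 in RA before therapy. The part of the summed signal in the difference of miR-26a between these groups was not tested.

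**Figure D4:**
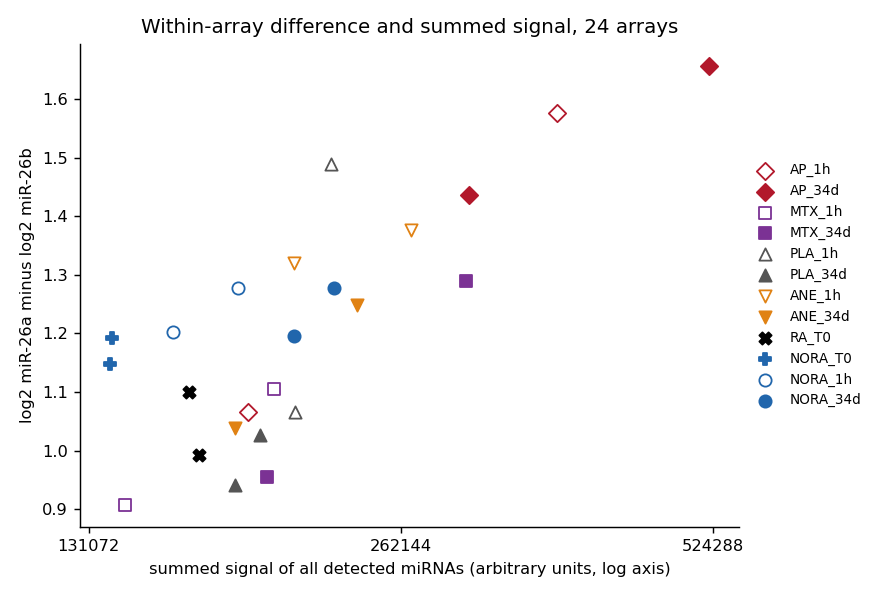
Log2 miR-26a minus log2 miR-26b (vertical axis) against the summed signal of all detected miRNAs (horizontal log axis, arbitrary units) on the 24 arrays, with a symbol for each group. Open symbols are 1 hour and filled symbols T0 or 34 days. Arrays of high summed signal lie highest (r = 0.78), led by replicate 1 of AP at 34 days (519917 and 1.66) and of AP at 1 hour (371061 and 1.58).

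The miRNAs that followed each member over the 24 arrays were different ones. Among 130 other miRNAs detected on all arrays, those most like miR-26a were miR-181d (r = 0.95), miR-17-5p (0.94), miR-23a (0.94), let-7d (0.93) and miR-128 (0.92). The median r over the 130 was 0.53. Those most like miR-26b were let-7f (r = 0.81), miR-140* (0.73), miR-27b (0.72), let-7a (0.69) and let-7c (0.65), around a median of 0.20. All points share the scaling of their array.

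Myc is known to repress a group of miRNAs to which miR-26 belongs. Of 25 others on that list, all were tested, and in AP at 34 days against RA 5 rose and none fell (20 were not called), against 40 called of all 210. Those called were miR-497 (1.65, adjusted p = 0.0406), let-7e (0.95, 0.0429), miR-23a (0.83, 0.0407) and miR-195 (0.72, 0.0383), with miR-30d (0.45, 0.0429) named after its value was seen. miR-195 and miR-497 belong to the miR-15/16 family, which restrains cell division, whereas let-7e and miR-30d have seeds of their own families. That family did not rise as a whole. Its members miR-15b and miR-16, on the same list, differed by -0.41 each (adjusted p = 0.0802 and 0.171) and were not called. The median over the list was 0.13, against 0.16 over all 210 miRNAs, and 14 of 25 lay above 0, against 119 of 210. The lowest was miR-150 at -2.43 (adjusted p = 0.0549), which is also a lymphocyte marker. Over the 17 other comparisons none of the 425 tests of these miRNAs was called, and 30 had an unadjusted p under 0.05. Over all 210 miRNAs these comparisons held 17 calls in 3570 tests (0.476%) and 328 with an unadjusted p under 0.05.

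Besides miR-26, miR-101 and miR-138 are known to repress Ezh2. Of 4 miRNAs on that list 3 were tested, since miR-124 did not pass the filter. None of their 54 tests over the 18 comparisons was called, and 2 had an unadjusted p under 0.05. Over all 210 miRNAs 57 of 3780 tests were called (1.51%), and 430 had an unadjusted p under 0.05. In AP at 34 days against RA miR-101a differed by 0.05 and miR-101b by 0.44 (adjusted p = 0.0596). miR-138 was detected on 1 array of AP at 34 days and on neither RA array, so no size is given.

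**Figure D5:**
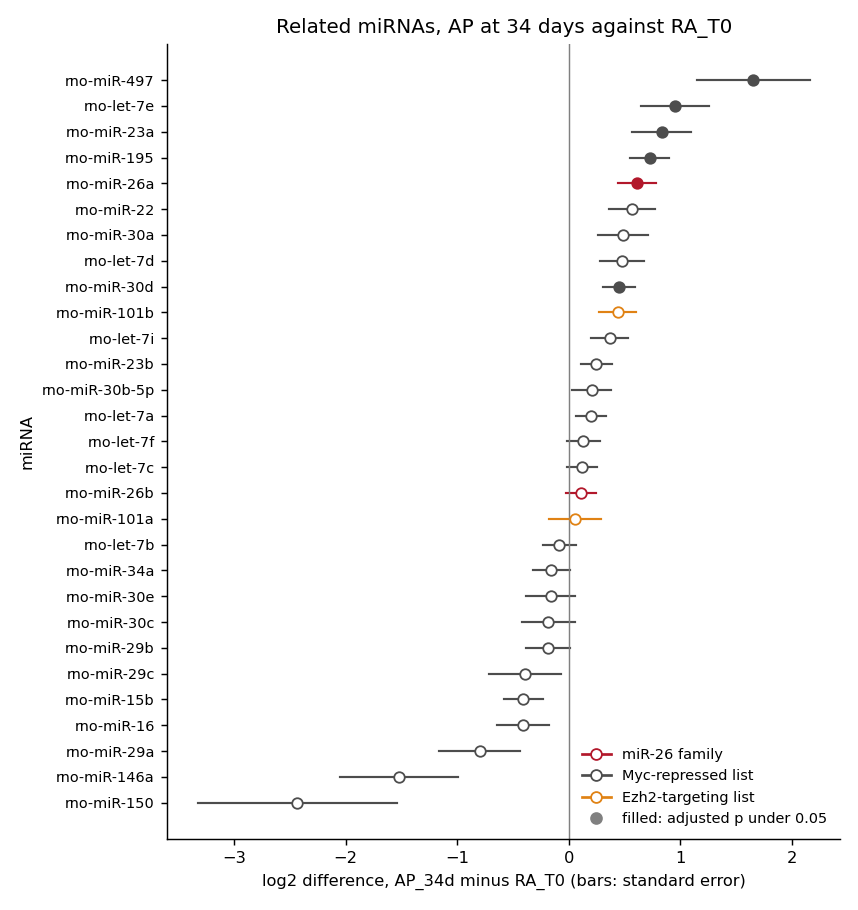
Log2 difference between AP at 34 days and RA before therapy for miR-26a and miR-26b (red), the Myc-repressed list (grey) and the Ezh2 list (orange), with standard errors, for miRNAs detected on all arrays of both groups. Filled points had an adjusted p under 0.05. The Myc-repressed miRNAs spread to both sides of 0, from miR-497 (1.65) to miR-150 (-2.43), with miR-26a (0.61) in the upper part and miR-26b (0.11) near the list's median of 0.13.

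Markers of blood cells also differed between groups. In AP at 34 days the summed scaled signal of the 3 lymphocyte markers was 2041 to 7463, against 13781 to 15011 in RA before therapy and 12459 to 12869 in PLA at 34 days. The lymphocyte markers differed from RA by -2.43 (miR-150, adjusted p = 0.0549), -1.29 (miR-342-3p, 0.0549) and -0.80 (miR-181a, 0.110), none of them called. The 2 myeloid markers summed to 19385 to 25806, against 15338 to 18420 in RA and 19368 to 19925 in PLA at 34 days. Of these, miR-223 rose by 0.89 against RA (adjusted p = 0.0383), while miR-142-3p differed by 0.12 (adjusted p = 0.650). Against PLA at 34 days miR-223 differed by 0.41 (adjusted p = 0.220). The platelet markers, miR-126 and miR-126*, summed to 105 to 205, against 59.3 to 67.0 in RA and 40.3 to 83.4 in PLA at 34 days. miR-126* was detected on at least 1 array of AP at 34 days and on no array of RA or of PLA at 34 days. Of the 3 red cell markers 2 were on the array, and their sum overlapped with that in RA (4663 to 8725 against 4306 to 27062) and lay below that in PLA at 34 days (17699 to 18813). The liver marker miR-122 was not detected in any of these 3 groups. In ANE at 1 hour, the second highest group of miR-26a, the lymphocyte markers summed to 6185 to 6934, the myeloid markers to 21367 to 23040, the platelet markers to 94.3 to 152.9 and the red cell markers to 2363 to 15639, and miR-122 was at 43.1 and 497.1. Low lymphocyte sums also occurred in groups lower in the order of miR-26a. AP at 1 hour, 8th in that order, had lymphocyte markers of 2103 to 12908 and platelet markers of 87.8 to 179.2. PLA at 1 hour, 5th in that order, had 4655 to 11892 and 63.0 to 114.2. The part of these cells in the levels of miR-26a was not tested.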

How the data were processed

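The deposited scanner files hold linear intensity values, which the authors read from the images with Agilent Feature Extraction 10.7.3.1 per the file headers. The software subtracted background and summed the spots of each miRNA into a total signal with a detection flag, with no normalization between arrays. All 12046 undetected values equalled their listed error and carry no level. Besides these, the authors deposited log2 values for the same arrays, named RMA in the submitters' processing notes, whose exact scale is not given in the sources used here. Its column medians lay between 2.89 and 2.91, and 24 of 24 columns matched their own array best. It was used as an alternative.

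Arrays were brought to one 75th percentile of total signal, taken from the 132 miRNAs detected on every array (factors 0.452 to 1.42), and values were floored at 5.76 and put on the log2 scale. One model of 12 group means was fitted to the 24 arrays with limma 3.58.1 (lmFit and eBayes) in R 4.3.3, with 12 residual degrees of freedom. P-values were two-sided and adjusted by Benjamini-Hochberg over 210 miRNAs detected on at least 3 arrays, and an adjusted p under 0.05 is a call. Intervals are 95%. The fit was tested on simulated data. With 2 arrays against 2, an exact test cannot go below p = 0.333. Correlations with summed signal used 100000 permutations, or exact ones within slides (Python 3.11.15, scipy 1.17.1), and neither kept the replicates of a group together. The study's threshold (fold above 2 and unadjusted p below 0.05) was an alternative.

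Groups and replicates came from the labels. For NORA at 34 days 1 line of the labels names 1 hour, while the title names 34 days, which was used. Named were the members, their opposite arms, the 5 miRNAs most like each and list members called where the family was. The members, lists and tests were chosen with earlier results of these data known. Alternatives were other scalings, background correction, filters, floor, the authors' table, a smaller fit, a replicate block and leaving out each array.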

Additional observations from a re-analysis of the deposited data

How the results depend on the processing

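The difference of miR-26a between AP at 34 days and RA before therapy was above 0 under every alternative, and its call was lost under the study's threshold of a fold over 2 (difference 0.61), with the 75th percentile over all miRNAs (0.41, adjusted p = 0.384), with quantile normalization (0.64, 0.0948), with no filter on detection (0.61, 0.131) and in a fit of only the arrays compared (0.61, 0.174). It was kept with no scaling, normexp, the authors' log2 table, a lower floor, only miRNAs detected on all arrays and the replicate block. The difference of miR-26a from PLA at 34 days became a call with no scaling (1.57, adjusted p = 0.0199), normexp (0.64, 0.0141), no filter (0.52, 0.0118) and only miRNAs detected on all arrays (0.52, 0.0410). With no scaling miR-26b was also called, at 1.30 against RA and 1.00 against PLA, where the medians over all miRNAs were 1.32 and 1.13. With normexp these medians were -0.68 and -0.77. The number of miRNAs called in AP at 34 days against RA was 40, and it was 0 with the 75th percentile over all miRNAs, quantile normalization, no filter or only the arrays compared, 132 with no scaling, 137 with normexp, 70 in the authors' table and 65 with only miRNAs detected on all arrays. Between 0 and 103 were called with 1 array left out. No filter adds tests (677 miRNAs), and 432 of these miRNAs were detected on no array. It did not only remove calls. With no filter, calls rose from 0 to 412 in AP_34d - PLA_34d and from 2 to 371 in RA_T0 - NORA_T0. A fit of only the arrays compared has fewer samples. The cause of these shifts was not tested. Both members were detected on every array, and the number of arrays limits the precision.

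Samples with the same replicate number did not deviate together (r of the replicate differences between -0.77 and 0.84 over 66 pairs of groups, median -0.03), so the numbers do not pair the samples. With the replicate number as a block, miR-26a in AP at 34 days against RA had the same difference of 0.61 (adjusted p = 0.0333), and 61 miRNAs were called in place of 40. The block changed no call of either member.

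Differences that changed sign were within the error in the fit reported. With the 75th percentile taken over all miRNAs, miR-26a came to 0.099 in RA_T0 - NORA_T0, -0.54 in MTX_1h - RA_T0, -0.73 in PLA_1h - RA_T0, -0.072 in ANE_34d - RA_T0, -0.25 in NORA_1h - NORA_T0, 0.75 in AP_1h - PLA_1h, 0.19 in MTX_1h - PLA_1h and -0.061 in MTX_34d - PLA_34d. With the 75th percentile taken over all miRNAs, miR-26b came to -0.50 in MTX_1h - RA_T0, -0.010 in ANE_1h - RA_T0, -0.085 in AP_34d - RA_T0, -0.015 in MTX_34d - RA_T0, -0.17 in ANE_34d - RA_T0, -0.32 in NORA_1h - NORA_T0 and 0.71 in AP_1h - PLA_1h. With no scaling, miR-26a came to 0.021 in RA_T0 - NORA_T0, 0.39 in AP_1h - PLA_1h and 0.43 in PLA_1h - NORA_1h. With no scaling, miR-26b came to 0.77 in AP_1h - RA_T0, 0.42 in PLA_1h - RA_T0, 0.35 in AP_1h - PLA_1h, -0.21 in MTX_1h - PLA_1h, 0.39 in PLA_1h - NORA_1h, 1.00 in AP_34d - PLA_34d, 0.41 in MTX_34d - PLA_34d and 0.60 in AP_34d - MTX_34d. With quantile normalization, miR-26a came to -0.072 in PLA_34d - RA_T0, -0.11 in NORA_1h - NORA_T0, 0.12 in AP_1h - PLA_1h and 0.15 in PLA_1h - NORA_1h. With quantile normalization, miR-26b came to -0.047 in RA_T0 - NORA_T0, -0.061 in ANE_1h - RA_T0, 0.047 in PLA_1h - RA_T0, -0.12 in AP_34d - RA_T0, -0.014 in ANE_34d - RA_T0, -0.11 in NORA_34d - NORA_T0 and 0.047 in ANE_34d - NORA_34d. With normexp, miR-26a came to 0.044 in PLA_1h - NORA_1h. With normexp, miR-26b came to 0.010 in PLA_1h - RA_T0, 0.073 in AP_34d - PLA_34d, 0.039 in MTX_34d - PLA_34d and 0.034 in AP_34d - MTX_34d. In the authors' log2 table, miR-26a came to -0.040 in PLA_34d - RA_T0, 0.34 in AP_1h - PLA_1h and 0.089 in PLA_1h - NORA_1h. In the authors' log2 table, miR-26b came to -0.044 in RA_T0 - NORA_T0, 0.096 in AP_1h - RA_T0, 0.082 in PLA_1h - RA_T0, 0.014 in AP_1h - PLA_1h, 0.029 in PLA_1h - NORA_1h, 0.018 in AP_34d - PLA_34d and 0.15 in MTX_34d - PLA_34d. With each array left out in turn, miR-26a ran from 0.41 to 0.81 in AP_34d - RA_T0, 0.32 to 0.72 in AP_34d - PLA_34d, -0.064 to 0.26 in MTX_1h - RA_T0 and -0.26 to 0.16 in PLA_1h - NORA_1h. miR-26a ran from -0.29 to 0.14 in AP_1h - PLA_1h, -0.34 to 0.087 in MTX_1h - PLA_1h and -0.031 to 0.24 in MTX_34d - PLA_34d. With each array left out in turn, miR-26b ran from -0.032 to 0.056 in RA_T0 - NORA_T0, -0.13 to 0.052 in AP_34d - PLA_34d, -0.30 to 0.049 in AP_1h - RA_T0 and -0.053 to 0.035 in PLA_1h - RA_T0. miR-26b ran from -0.29 to 0.058 in AP_1h - PLA_1h, -0.15 to 0.040 in ANE_34d - NORA_34d and -0.094 to 0.086 in AP_34d - MTX_34d. The call of miR-26a against RA was lost without AP at 34 days replicate 1, without either RA array and without any of 4 NORA arrays. The call against PLA appeared without AP at 34 days replicate 2 (0.72, adjusted p = 0.0181) and without either AP array at 1 hour (0.0453).

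In the authors' table the group means of miR-26a minus miR-26b ran over 1.01 and differed by 0.90 between AP at 34 days and RA, where the scanner values gave 0.56 and 0.50. Of the 5 miRNAs most like miR-26a, 2 stayed among the nearest 5 with the 75th percentile over all miRNAs, 2 with no scaling, 3 in the authors' table and 3 over the 12 group means. Of those of miR-26b, 3 stayed with no scaling and 0 in the authors' table. All other alternatives, 358 with no array left out and 246 with 1 array left out, kept the direction and the side of the threshold, or a value within the spread. The planned normexp correction of the mean spot signal was not run, since the median is what the files hold, and normexp on the median was chosen after seeing the data.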
